A study of Mus musculus with 6 samples.

Results

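The cytosolic ribosome is built from ribosomal RNA and from the proteins of a large and a small subunit, and the genes of those proteins were followed here in mouse visceral fat. Members were the protein-coding rows of the deposited gene table with an Rpl or Rps symbol, together with Rpsa, Rplp0, Rplp1 and Rplp2, and without pseudogene names. The rule found 85 of 48897 rows, or 85 of 21886 protein-coding rows: 46 large-subunit genes, 31 small-subunit genes and 8 paralogs, which are close copies such as Rpl3l and Rps27l. The 77 large- and small-subunit genes are called the core genes below. All libraries came from the epididymal white adipose tissue, the fat depot beside the epididymis and testis, of wild-type C57BL/6 mice at 35 weeks of age whose diets began at 6 weeks. F-H is read as continuous high-fat feeding with 60% of calories from fat, F-H-L as 9 weeks of that diet followed by 10 cycles of 1 low-fat and 1 high-fat week, and F-L as continuous low-fat feeding with 10% of calories from fat. Only the letters of the codes link a library to its diet, and the last week of each cycle was a high-fat one. There were 2 libraries a group (replicates 1 and 2), and the labels do not say whether they came from separate mice, so a p-value measures only the spread between these libraries, which may be technical.

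Ribosomal proteins are needed in fixed proportion, and their messages are among the most abundant of a mammalian cell. Most of these messages begin with a C followed by a run of pyrimidines, the 5′ terminal oligopyrimidine (TOP) tract, through which mTOR signalling and the protein LARP1 control their translation in step with nutrients and growth signals. MYC drives transcription of these genes and of the factors that assemble ribosomes. A few paralogs take the place of their partner in particular tissues: Rpl3l in heart and skeletal muscle, and Rpl10l and Rpl39l in male germ cells.

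The start regions of 9 members are shown as the sequence behind the TOP tract, 5 of them core genes with a run of 10 or more C or T. Another is a core gene whose level stands apart (Rps26), and 3 are the tissue-restricted paralogs. Each line covers 40 bases, 20 on either side of the start annotated by RefSeq in GRCm38.p6, and capitals mark the longest run of C and T in the bases shown.
Rpl27a, chr7:109519175-109519214, plus strand: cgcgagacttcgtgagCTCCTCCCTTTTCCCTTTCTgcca
Rpl35, chr2:39005112-39005151, minus strand: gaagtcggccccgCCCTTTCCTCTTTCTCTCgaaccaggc
Rpl13a, chr7:45128726-45128765, minus strand: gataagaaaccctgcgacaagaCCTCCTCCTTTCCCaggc
Rps12, chr10:23787190-23787229, minus strand: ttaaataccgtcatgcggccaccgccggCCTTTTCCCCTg
Rps6, chr4:86857348-86857387, minus strand: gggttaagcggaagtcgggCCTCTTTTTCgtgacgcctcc
Rps26, chr10:128626487-128626526, minus strand: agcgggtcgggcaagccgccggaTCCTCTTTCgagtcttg
Rpl39l, chr16:10170208-10170247, plus strand: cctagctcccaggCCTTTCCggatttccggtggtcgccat
Rpl10l, chr12:66284382-66284421, minus strand: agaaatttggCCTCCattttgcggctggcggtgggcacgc
Rpl3l, chr17:24727806-24727845, plus strand: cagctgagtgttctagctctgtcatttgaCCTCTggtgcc
A run of 10 or more C or T lay within 50 bases of the annotated start, on the strand of the gene, in 41 of the 65 members found in the RefSeq table (63.1%), against 5957 of 32851 promoters in all (18.1%). The same search on the opposite strand, for runs of A or G, matched 8 of 65 members (12.3%) and 19% of all promoters. The longest run in that window was 20 bases in Rpl27a, 18 in Rpl35, 14 in Rpl13a, 11 in Rps12 and 10 in Rps6. It was 9 bases in Rps26, Rpl39l and Rpl3l, and 5 in Rpl10l. A match describes letters and not a mapped message start, and the row of Rpl39l in the deposited table begins 31 bases away from the RefSeq start. Among the 65 members searched that distance reached 3630 bases.

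Before any comparison, F-L replicate 1 stood apart in its adipocyte and epididymis messages and F-L replicate 2 in its testis messages. Total counts were 41091012 to 49230161 per library. Counts on 20 adipocyte markers made up 2.38% and 3.23% of F-H libraries, 4.73% and 5.13% of F-H-L libraries, and 0.413% of F-L replicate 1 and 3.05% of F-L replicate 2, so the defining messages of the labelled tissue were lowest in F-L replicate 1. Counts on 19 epididymis epithelium markers made up 0.000345% and 0.0447% of F-H libraries and 0.194% and 0.171% of F-H-L libraries. They made up 2.06% and 0.447% of F-L libraries, and 8 of the 19 were at 0 in F-H replicate 1. The markers did not all move alike, since by edgeR 14 of the 19 were lower in F-H than in F-L and 5 were higher. Counts on 16 testis germ cell markers made up 0.00348% and 0.0046% of F-H libraries, 0.0164% and 0.0176% of F-H-L libraries, and 0.0832% and 0.827% of F-L libraries, with 1 marker at 0 in F-H replicate 1. Macrophage markers (20 genes) held 1.54% and 1.20% of F-H counts, 0.199% and 0.145% of F-H-L counts, and 0.0545% and 0.116% of F-L counts. In a piece of tissue, fewer cells of a type and less RNA per cell cannot be told apart.

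The 85 members together held 3.65% and 3.30% of all counts in F-H (3.48% ± 0.252, SD, n = 2), 3.08% and 3.40% in F-H-L (3.24% ± 0.229, SD, n = 2), and 6.16% and 2.84% in F-L (4.50% ± 2.35, SD, n = 2). Both F-H and both F-H-L libraries lay between the 2 F-L libraries, so the groups on high-fat or cycled diet overlapped F-L. The 95% Wilson intervals were narrow, for instance 6.15% to 6.16% in F-L replicate 1 and 2.83% to 2.84% in F-L replicate 2, and cover counting error only. A two-sided exact permutation test of the shares gave p = 1.0 for F-H against F-L, p = 1.0 for F-H-L against F-L and p = 0.667 for F-H-L against F-H, where 2 libraries against 2 cannot go below 0.333. With the row of 18S ribosomal RNA (Rn18s-rs5, 2.54% and 6.02% of F-H counts, 3.93% and 6.73% of F-H-L counts, 2.65% and 2.35% of F-L counts) taken out of the total, the member shares were 3.75% and 3.51% in F-H, 3.20% and 3.65% of counts in F-H-L, and 6.32% and 2.91% in F-L. Pseudogene rows with a -ps name (192 rows) took a further 0.0135% to 0.0248% of counts.

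On the RPKM scale, which divides counts by gene length and library size, the median core gene stood at 521 and 473 RPKM in F-H, 449 and 501 RPKM in F-H-L, and 790 and 392 RPKM in F-L. F-L replicate 1 held the highest value for 76 of the 77 core genes, and F-L replicate 2 the lowest value for 58 of them. The ratio of F-L replicate 1 to F-L replicate 2 ran from 1.47 for Rpl29, through a median of 2.13, to 3.75 for Rps26, and exceeded 1.5 in 76 of 77 core genes (98.7%), against 25.9% of the 14634 genes that had a mean of at least 1 RPKM and a ratio, whose median was 0.896. Replicate 1 over replicate 2 had a median of 1.09 in F-H. In F-H-L that median was 0.921 (0.718 to 1.14). The median ratio between the F-L libraries was 2.11 over large-subunit genes and 2.21 over small-subunit genes. The adipocyte share given above was lowest and the epididymis share highest in the same library, and their part in its ribosomal protein level was not tested.

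**Figure D1:**
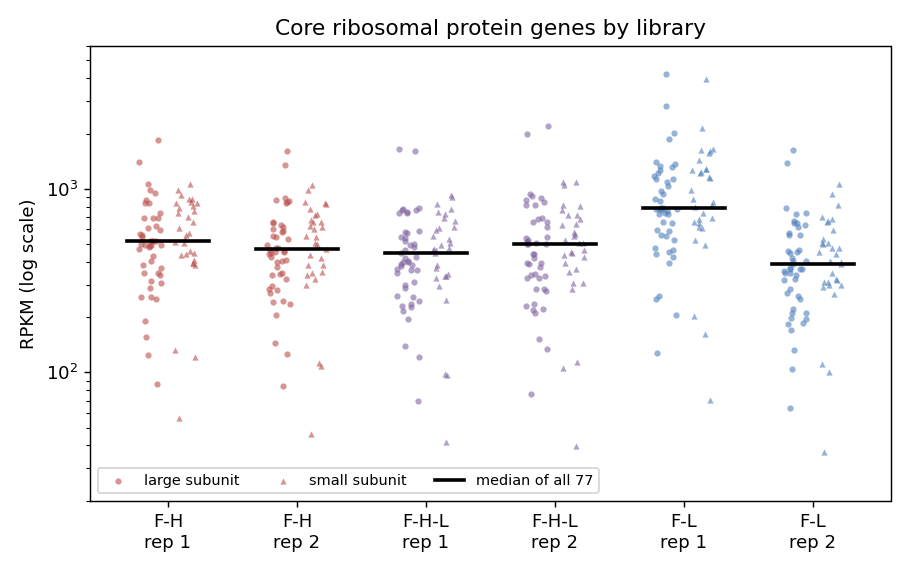
RPKM of the 77 core genes in each library on a log axis, with circles for large-subunit genes, triangles for small-subunit genes and a bar at the median of all 77. The bar lies between 392 and 521 RPKM in every library except F-L replicate 1, where it lies at 790 RPKM.

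On the RPKM scale, core genes were also compared across F-H, F-H-L and F-L replicate 2 together. The highest of these 5 libraries exceeded the lowest by a median factor of 1.37, and by as little as 1.14 for Rps7. F-L replicate 1 exceeded the mean of those 5 by a median factor of 1.78, and by as much as 4.27 for Rps26. The library-size scaling bears on the size of that gap, since with TMM scaling (a trimmed mean of ratios between libraries) the median factor was 1.60 and that of Rps26 3.88. Core genes were also split by a run of 10 or more C or T within 50 bases of the annotated start. The F-L replicate ratio was similar with such a run (median 2.14, 38 genes) and without one (median 2.22, 19 genes). Such a run need not be a TOP tract, since that of Rpl10 began 40 bases past the start. Rps26, whose run of 9 bases began 3 bases past the start, counted as without. Across the 77 genes, which are not independent, the log2 F-L replicate ratio correlated weakly with log2 gene length (r = -0.205, rho = -0.142). Its correlation with log2 mean RPKM was weak as well (r = 0.291, rho = 0.197).

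The most abundant members by mean RPKM over the 6 libraries were Rpl41 at 2070, Rplp1 at 1887, Rps26 at 1443, Rps14 at 1184 and Rps12 at 1039. The least abundant were Rpl32l at 0.207, Rpl3l at 8.15, Rpl39l at 14.8, Rpl10l at 18.5 and Rpl7l1 at 27.8. Among core genes Rps15a was lowest in every library, at 36.9 to 70.9 RPKM, and its row has the greatest length, 5136 bases, against a median of 795. Longer rows had lower RPKM in general (r = -0.727 and rho = -0.563 between log2 length and log2 mean RPKM, 77 genes that share the same libraries), so the order of levels leans on the row lengths the authors used.

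The make-up of the core, each gene's share of all core counts, was alike in all libraries. Log2 shares correlated across the 77 genes at r = 0.874 to 0.982 between pairs of libraries. Few genes left the median of their own 6 shares by more than 0.5 on the log2 scale in any library. Rps26 made up 1.05% and 1.16% of core counts in F-H, 1.22% and 1.45% of those in F-H-L, and 2.93% and 1.71% in F-L. Rpl41 was 0.52 below its median in F-H replicate 1, and Rpl29 was 0.59 below its median in F-L replicate 1. The spread of these deviations over the 77 genes was widest in F-L replicate 1 (SD 0.264 on the log2 scale) and lay between 0.0735 and 0.155 in the other 5 libraries.

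**Figure D2:**
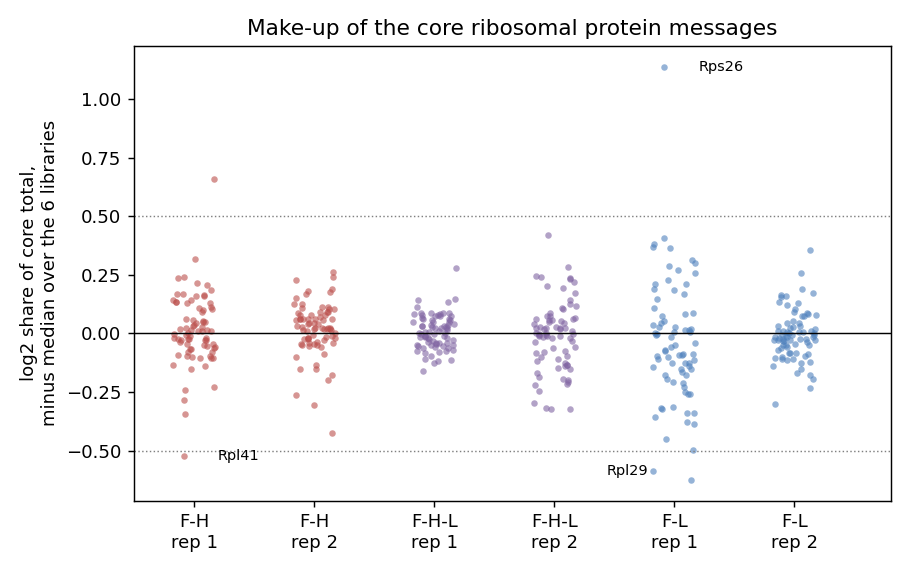
Log2 share of each core gene in the core total of its library, minus the median of that gene's shares over the 6 libraries; dotted lines mark 0.5 on either side of 0. Rps26 stands 1.14 above its median in F-L replicate 1, Rpl29 stands 0.59 below in that library, and Rpl41 stands 0.52 below in F-H replicate 1.

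In F-H against F-L, which asks how long-term high-fat feeding bears on the ribosomal protein messages, no member passed the test, and the median difference over the core genes was close to 0. edgeR's quasi-likelihood test (adjusted p under 0.05, Benjamini-Hochberg over 22289 genes) called 0 of the 84 members tested, with 3 at an unadjusted p under 0.05, while it called 193 genes in all (0.866%), 6507 of all genes being at an unadjusted p under 0.05. Rpl32l, at most 0.37 RPKM in any library, was too low to be tested. The median log2 fold change was -0.07 over the members, -0.05 over the large subunit and -0.09 over the small subunit, against -0.12 over all genes tested. The median SE of a core gene was 0.48 on the log2 scale, and 72 of 77 core genes lay within 0.5 of 0. Both F-H libraries were below both F-L libraries in 4 of 77 core genes (5.20%), and above them in 0, where 35.5% of the 14763 genes of at least 1 RPKM were below and 23.9% above.

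The small-subunit gene Rps26, whose protein sits at the messenger RNA exit channel, had 848 and 844 RPKM in F-H and 3986 and 1062 RPKM in F-L. Both F-L libraries were above both F-H libraries, and F-L replicate 1 was far above the rest. Its log2 fold change was -1.37 ± 0.69 (SE; edgeR adjusted p = 0.251), the lowest adjusted p of any core gene. The rows of 12 of the 85 members overlap a row on the opposite strand, and without a stated strand setting reads of such a pair cannot be told apart. Rps26, Rpl41 and Rpl13 are not among these 12, and Rpl7l1 is. Rpl41, the shortest ribosomal protein, had 1401 and 1353 RPKM in F-H and 4222 and 1636 RPKM in F-L, with a log2 fold change of -0.88 ± 0.58 (SE; edgeR adjusted p = 0.374). Rpl13 had 874 and 662 RPKM in F-H and 1866 and 784 RPKM in F-L, a log2 fold change of -0.57 ± 0.55. The positive values named here were small: 0.50 ± 0.24 for Rpl7l1, 0.26 ± 0.41 for Rps28, 0.24 ± 0.45 for Rpl10a, 0.23 ± 0.49 for Rpl13a and 0.23 ± 0.44 for Rpsa, none past the test.

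The F-H against F-L values turned on the F-L library kept. Without F-L replicate 1 the member median was 0.60 (all genes 0.03), and 4 of 84 members were lower in F-H, among them Rpl10l, Rpl39l and Rpl3l. Without F-L replicate 2 the member median was -0.45 (all genes 0.06), and 82 of 84 members were lower in F-H. In these fits the lone F-L library is taken to vary like the other groups. The 193 calls over all genes became 0 when any F-H or F-H-L library was left out. DESeq2 called 3 members, the paralogs Rpl10l, Rpl39l and Rpl3l, against 25.5% of the genes it tested.

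In F-H-L against F-L, which sets the cycled diet beside continuous low-fat feeding, again no member passed the test. The F-L libraries are those of the previous comparison. edgeR called 0 of 84 members, with 1 at an unadjusted p under 0.05, and 0% of all genes, of which 3975 were at an unadjusted p under 0.05. The median log2 fold change was -0.19 over the members, -0.17 over the large subunit and -0.26 over the small subunit, against -0.09 over all genes. Of 77 core genes 71 lay within 0.5 of 0, and the smallest adjusted p of a core gene was 0.379. Both F-H-L libraries were below both F-L libraries in 1 core gene and above them in 0, where 32% of the 14763 genes were below and 25.1% above. Rps26 had 828 and 1091 RPKM in F-H-L, against 3986 and 1062 RPKM in F-L (log2 fold change -1.16 ± 0.69, SE; edgeR adjusted p = 0.379). Rpl10, which joins late in large-subunit assembly, had 741 and 682 RPKM in F-H-L, against 2013 and 649 RPKM in F-L (-0.67 ± 0.61). Here F-L replicate 2 lay below both F-H-L libraries, so the groups overlap. Rps27 had 342 and 307 RPKM in F-H-L, against 800 and 311 RPKM in F-L (-0.54 ± 0.52). The most positive values were 0.26 ± 0.24 for Rpl7l1, 0.23 ± 0.44 for Rpsa, 0.20 ± 0.35 for Rpl29, 0.17 ± 0.41 for Rpl35, 0.15 ± 0.43 for Rpl23a and 0.15 ± 0.45 for Rps19.

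The choice of F-L library again set the sign of F-H-L against F-L. Without F-L replicate 1 the member median was 0.43 (all genes 0.10), and 3 of 84 members were lower in F-H-L, among them Rpl10l and Rpl39l. Without F-L replicate 2 the median was -0.61 (all genes 0.01), and 82 of 84 members were lower in F-H-L. These fits, too, take the lone F-L library to vary like the other groups. DESeq2 called 2 members, Rpl10l and Rpl39l, against 10.8% of the genes it tested.

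**Figure D3:**
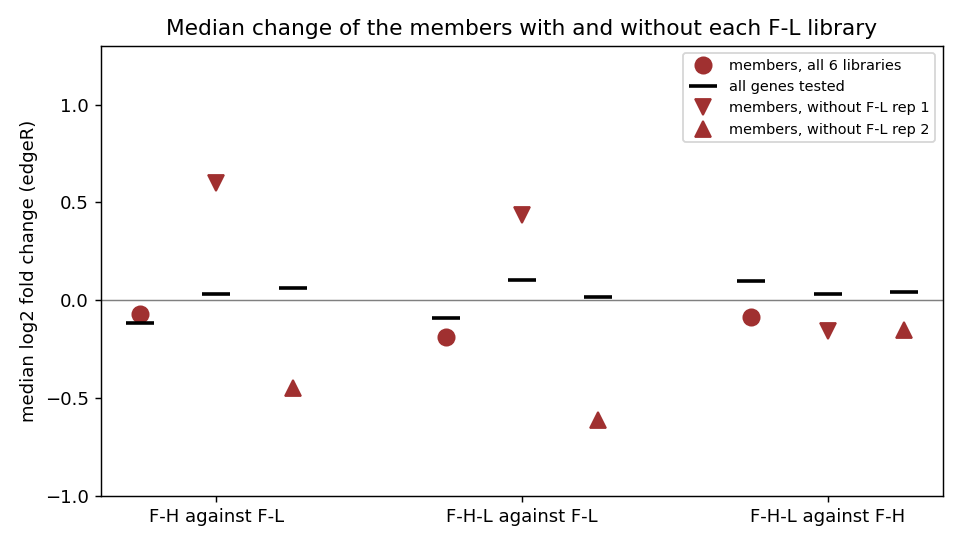
Median log2 fold change of the members tested (red) and of all genes tested (black bars) in each comparison, with all 6 libraries, without F-L replicate 1 and without F-L replicate 2. In the comparisons with F-L the member median is above 0 without F-L replicate 1 (0.60 and 0.43) and below 0 without F-L replicate 2 (-0.45 and -0.61).

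F-H-L against F-H holds no F-L library in either group, and its replicates lay closer. The pooled SD between replicates of the mean log2 CPM over the core genes was 0.166. It was 0.609 for F-H against F-L and 0.608 for F-H-L against F-L. Unless stated otherwise, the edgeR SEs and p-values of this comparison come from the fit of all 6 libraries, so they carry the F-L spread. The median SE of a core gene was 0.48 here, as in both comparisons with F-L. edgeR called 0 of 84 members, with 1 at an unadjusted p under 0.05, and 0% of all genes, of which 2362 were at an unadjusted p under 0.05. The median log2 fold change was -0.09 over the members, -0.08 over the large subunit and -0.15 over the small subunit, against 0.10 over all genes tested, and 75 of 77 core genes lay within 0.5 of 0. Fitted without the F-L libraries, edgeR called 0 members and 289 genes in all, and the member median was -0.15 (all genes 0.02). The member median was 0.05 without F-H replicate 1 and 0.06 without F-H-L replicate 1. It was -0.17 without F-H replicate 2 and -0.19 without F-H-L replicate 2. Both F-H-L libraries were below both F-H libraries in 35 of 77 core genes (45.5%) and above them in 3 (3.90%), where 31.1% of the 14763 genes were below and 37.8% above. DESeq2 called 1 member, Rpl3l, against 4.7% of the genes it tested.

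Among single core genes of F-H-L against F-H, Rpl35a had 388 and 344 RPKM in F-H-L, against 545 and 453 RPKM in F-H (-0.43 ± 0.41). Rpl17 had 227 and 229 RPKM in F-H-L, against 316 and 286 RPKM in F-H, and Rps13 had 248 and 283 RPKM in F-H-L, against 396 and 299 RPKM in F-H. Rpl10 and Rpl23 were lower without overlap as well, at 741 and 682 RPKM in F-H-L, against 983 and 860 RPKM in F-H for Rpl10, and at 378 and 339 RPKM in F-H-L, against 493 and 424 RPKM in F-H for Rpl23. Rpl41 had 1608 and 2199 RPKM in F-H-L, against 1401 and 1353 RPKM in F-H (0.50 ± 0.58), and Rpl36 had 362 and 504 RPKM in F-H-L, against 368 and 344 RPKM in F-H (0.32 ± 0.41). Every one of these differences missed the threshold.

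Members with a well-known role were spread over the libraries in a like way. The stalk proteins, which recruit elongation factors to the large subunit, are Rplp0, Rplp1 and Rplp2. Rplp0 had 690 and 631 RPKM in F-H, 738 and 812 RPKM in F-H-L, and 1358 and 730 RPKM in F-L. Rplp1 had 1852 and 1608 RPKM in F-H, 1653 and 1996 RPKM in F-H-L, and 2834 and 1377 RPKM in F-L. Rplp2 had 517 and 455 RPKM in F-H, 449 and 546 RPKM in F-H-L, and 782 and 371 RPKM in F-L. For Rplp1 and Rplp2 the F-L libraries were the highest and the lowest of the 6, and for Rplp0, a common reference gene in quantitative PCR, both F-H libraries were the lowest.

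Rpl5 and Rpl11, which carry the 5S ribosomal RNA into the large subunit and bind Mdm2 when assembly stalls, were both highest in F-L replicate 1. Rpl5 had 257 and 244 RPKM in F-H, 236 and 221 RPKM in F-H-L, and 555 and 221 RPKM in F-L. Rpl11 had 562 and 535 RPKM in F-H, 548 and 618 RPKM in F-H-L, and 931 and 452 RPKM in F-L. Rps6, the substrate of S6 kinase below mTOR, had 384 and 340 RPKM in F-H, 296 and 306 RPKM in F-H-L, and 649 and 300 RPKM in F-L. On the log2 scale Rps6 differed by -0.18 ± 0.48 in F-H against F-L, -0.41 ± 0.48 in F-H-L against F-L and -0.24 ± 0.48 in F-H-L against F-H. Rpsa, the small-subunit protein also known as a laminin receptor, had 456 and 384 RPKM in F-H, 383 and 444 RPKM in F-H-L, and 527 and 311 RPKM in F-L. Rps27a, made as a fusion with ubiquitin, had 436 and 383 RPKM in F-H, 336 and 354 RPKM in F-H-L, and 619 and 293 RPKM in F-L.

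The paralogs held the widest differences between libraries. Rpl3l (Entrez 66211; mm10 chr17:24727829-24736149), the striated-muscle counterpart of Rpl3, had 1 and 19 counts in F-H, 147 and 369 counts in F-H-L, and 4885 and 610 counts in F-L. That is 0.0069 and 0.154 RPKM in F-H, 1.1 and 2.85 RPKM in F-H-L, and 40.5 and 4.3 RPKM in F-L, so no pair of groups overlapped. The log2 fold change was -7.97 ± 1.85 in F-H against F-L (SE; edgeR adjusted p = 0.0816), -3.26 ± 1.46 in F-H-L against F-L (adjusted p = 0.299) and 4.71 ± 1.63 in F-H-L against F-H (adjusted p = 0.431). Counts on 12 skeletal muscle markers stayed at 0.0016% to 0.0054% of each library and were highest in F-H-L replicate 1. Rpl3l was highest in F-L replicate 1, next in F-L replicate 2 and lowest in F-H replicate 1, as the epididymis marker share was. The part of that tissue in the Rpl3l level was not tested. Its partner Rpl3, at the peptidyl transferase centre, had 488 and 455 RPKM in F-H, 365 and 392 RPKM in F-H-L, and 766 and 337 RPKM in F-L.

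Rpl10l (Entrez 238217; mm10 chr12:66283379-66284401), the germ-cell copy of the X-linked Rpl10, had 5 and 6 counts in F-H, 19 and 32 counts in F-H-L, and 50 and 5373 counts in F-L. Its level was 0.0993 and 0.14 RPKM in F-H, 0.41 and 0.71 RPKM in F-H-L, and 1.19 and 109 RPKM in F-L. Rpl39l (Entrez 68172; mm10 chr16:10170197-10174911), the germ-cell copy of Rpl39 of the peptide exit tunnel, had 4 and 25 counts in F-H, 28 and 59 counts in F-H-L, and 20 and 3540 counts in F-L. Its level was 0.0945 and 0.693 RPKM in F-H, 0.719 and 1.56 RPKM in F-H-L, and 0.566 and 85.2 RPKM in F-L. Both paralogs were high in F-L replicate 2 alone, the library with the highest testis marker share, 0.827%. In F-L replicate 1 Rpl10l was above every F-H and F-H-L library, and Rpl39l lay between the 2 F-H libraries. The log2 fold change of Rpl10l was -8.55 ± 2.23 in F-H against F-L (SE; edgeR adjusted p = 0.0910), -6.29 ± 1.99 in F-H-L against F-L (adjusted p = 0.274) and 2.25 ± 1.82 in F-H-L against F-H (adjusted p = 0.666). That of Rpl39l was -6.52 ± 2.36 in F-H against F-L (SE; edgeR adjusted p = 0.144), -4.91 ± 2.18 in F-H-L against F-L (adjusted p = 0.296) and 1.61 ± 1.96 in F-H-L against F-H (adjusted p = 0.778). The part of testis RNA in these levels was not tested. Rpl39 itself had 522 and 441 RPKM in F-H, 425 and 393 RPKM in F-H-L, and 778 and 320 RPKM in F-L.

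**Figure D4:**
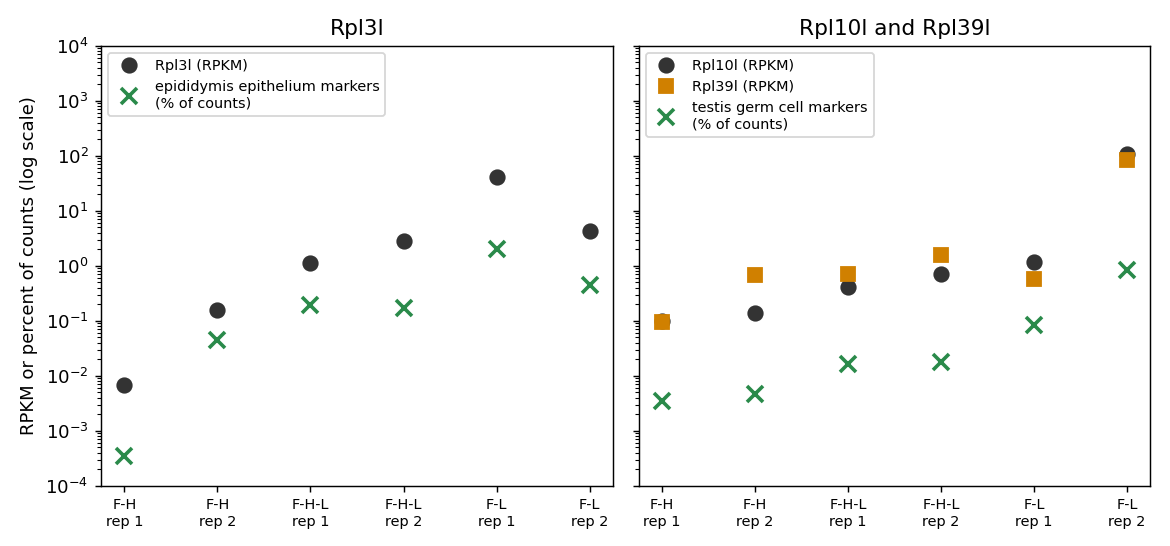
Level of Rpl3l beside the epididymis marker share (left) and of Rpl10l and Rpl39l beside the testis marker share (right) in each library, on log axes in RPKM and percent of counts. Rpl3l peaks at 40.5 RPKM in F-L replicate 1, where the epididymis share is 2.06%, and Rpl10l and Rpl39l peak at 109 and 85.2 RPKM in F-L replicate 2, where the testis share is 0.827%.

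The broadly expressed paralogs varied less. Rpl22l1 had 99.4 and 107 RPKM in F-H, 109 and 99.5 RPKM in F-H-L, and 129 and 109 RPKM in F-L, close to its partner Rpl22 at 86.8 and 84.7 RPKM in F-H, 69.7 and 76.1 RPKM in F-H-L, and 127 and 64.2 RPKM in F-L. Its replicates in F-L were nearer each other than those of Rpl22. Rpl7l1 had 30.9 and 32 RPKM in F-H, 27.7 and 24.3 RPKM in F-H-L, and 27.9 and 24 RPKM in F-L, far below Rpl7, which averaged 559 ± 14.9 RPKM in F-H, 512 ± 18.5 RPKM in F-H-L and 599 ± 219.5 RPKM in F-L (SD, n = 2 each). Rpl36al had 305 and 302 RPKM in F-H, 289 and 331 RPKM in F-H-L, and 499 and 226 RPKM in F-L, and its X-linked partner Rpl36a averaged 291 ± 3.96 RPKM in F-H, 270 ± 13.2 RPKM in F-H-L and 324 ± 197 RPKM in F-L (SD, n = 2 each). Rps27l, which p53 induces, had 76.7 and 68.6 RPKM in F-H, 68.4 and 77.1 RPKM in F-H-L, and 105 and 59.1 RPKM in F-L. Reads of members with near-identical copies, paralogs or pseudogenes, may have been misplaced or left out of the counts, which makes the level of such a row uncertain. Rps4l is a pseudogene row in the table and no member, and its relative Rps4x averaged 699 ± 59.3 RPKM in F-H, 589.5 ± 10.7 RPKM in F-H-L and 890 ± 546 RPKM in F-L (SD, n = 2 each).

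Genes that belong to the ribosome without an Rpl or Rps symbol were likewise highest in F-L replicate 1. Fau, a ubiquitin-like fusion that yields a small-subunit protein, had 760 and 604 RPKM in F-H, 510 and 619 RPKM in F-H-L, and 1596 and 518 RPKM in F-L. Rack1, the scaffold on the small subunit, had 508 and 419 RPKM in F-H, 383 and 388 RPKM in F-H-L, and 724 and 307 RPKM in F-L. Neither passed the edgeR test in any comparison.

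Wider lists of the pathway gave 0 calls by edgeR in all 3 comparisons. The 35 ribosome biogenesis factors had a median log2 fold change of 0.12 in F-H against F-L, -0.07 in F-H-L against F-L and -0.12 in F-H-L against F-H, beside -0.12, -0.09 and 0.10 over all genes. Their summed share of counts was 0.174% and 0.169% in F-H, 0.156% and 0.156% of counts in F-H-L, and 0.196% and 0.176% in F-L, without the gap between F-L libraries seen in the members. The 18 genes listed as translation factors with TOP messages had medians of -0.08, -0.22 and -0.17 in the same order. Their TOP tracts were taken from the literature and not searched for here. Their summed shares were 1.18% and 1.03% in F-H, 0.927% and 0.890% of counts in F-H-L, and 1.61% and 1.05% in F-L. The 21 growth and mTOR-MYC regulators had medians of -0.11, 0.09 and 0.07.

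Of these lists, the genes nearest the threshold were Myc, its dimer partner Max, and Mtor, the kinase of the mTOR pathway. Myc had 9.59 and 7.95 RPKM in F-H, 4.28 and 3.18 RPKM in F-H-L, and 2.51 and 3.32 RPKM in F-L. On the log2 scale Myc differed by 1.83 ± 0.41 in F-H against F-L (SE; edgeR adjusted p = 0.0787) and -1.22 ± 0.41 in F-H-L against F-H (adjusted p = 0.423). Max had 36.8 and 26.6 RPKM in F-H, 19.1 and 19.7 RPKM in F-H-L, and 18.3 and 14 RPKM in F-L, with 1.20 ± 0.32 in F-H against F-L (adjusted p = 0.0928). Mtor had 6.73 and 7.23 RPKM in F-H, 9.22 and 9.78 RPKM in F-H-L, and 13.6 and 16.9 RPKM in F-L, with -0.90 ± 0.24 in F-H against F-L (adjusted p = 0.0935), and was named after its values were seen. No pair of groups overlapped for Mtor. For Myc and Max, F-H stood above the other groups without overlap, and the macrophage marker share given above was highest in F-H too, its part in these levels not tested. Nap1l1, a histone chaperone with a TOP message, had a log2 fold change of 0.83 ± 0.30 in F-H against F-L (adjusted p = 0.141), and Dkc1, the pseudouridine synthase of ribosomal RNA, 0.64 ± 0.29 (adjusted p = 0.214). In F-H-L against F-L the smallest p of the regulators belonged to Tsc1, the mTOR inhibitor, at -0.96 ± 0.33 (adjusted p = 0.274), and to Rps6kb1, the S6 kinase, at 0.64 ± 0.25 (adjusted p = 0.276). Heatr1, a factor of ribosomal RNA synthesis, had the smallest p of the biogenesis factors in F-H-L against F-H, at -0.94 ± 0.34 (adjusted p = 0.444).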

How the data were processed

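The authors deposited 1 table with unnormalized read counts for each row and library, and RPKM that they derived from those counts, per the file headers; RPKM matched count over length over total within a relative 1e-06 in 100% of genes with over 50 counts. The Length column (other unit) is the row length in bases the authors deposited. Per the submitters' processing notes, bcl2fastq, HISAT2 2.1.0, HTSeq and build mm10 were used; the strand setting and annotation version, not given in the sources used here, stay unknown. Per the labels' protocols, libraries were made with a TruSeq RNA kit from selected mRNA.

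Counts of all genes were fitted with edgeR 4.0.16 in R 4.3.3: filterByExpr (22289 genes), TMM, and a single quasi-likelihood fit of all 6 libraries with group as its factor (3 residual degrees of freedom, common dispersion 0.398), Benjamini-Hochberg adjustment, two-sided, called under 0.05. SEs were taken as the absolute log2 fold change divided by the root of the F statistic. Alternatives used limma 3.58.1 on log2(RPKM + 1) and log2(RPKM + 0.1), DESeq2 1.42.0, other scalings, no filter, a replicate block and each library left out. The edgeR step was tested on simulated data, where its fold changes were recovered. Recovery of calls was required only at a dispersion far below that of these data, so the power to call members here was not shown. Summaries and plots used matplotlib 3.10.9, numpy 2.4.6 and pandas 2.3.3 under Python 3.11.15.

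Members and gene lists were chosen with earlier results of these data known. Named members were, in each comparison, the 6 largest positive and 6 largest negative log2 fold changes at a mean of at least 5 RPKM, any called member, the 5 highest and 5 lowest by mean RPKM, and genes of fixed roles and paralog pairs; from each pathway list, the genes of smallest p. Some genes chosen by this rule are not reported here; they count in all totals and medians. Genes named for their share or ratio (Rpl29, Rps7, Rps15a, Rpl27a) were chosen after their values were seen. Promoter sequences are from RefSeq (GRCm38.p6), matched by symbol or Entrez number, with the RefSeq start nearest the deposited row taken.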

Additional observations from a re-analysis of the deposited data

How the results depend on the processing

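No member called in any setting had a sign opposite to that of the main fit, but member medians did change sign. Without F-L replicate 1 the median went from -0.07 to 0.60 in F-H against F-L. In F-H-L against F-L it went from -0.19 to 0.43. In F-H against F-L, members called were 3 with libraries scaled to the adipocyte markers (3841 genes in all), 4 without the low-count filter (6025 genes) and 3 with DESeq2 (6063 genes); the member median was -2.32 under adipocyte scaling, beside -1.995 over all genes. In F-H-L against F-L, members called were 4 under adipocyte scaling (6614 genes in all), 3 without the filter (3910 genes) and 2 with DESeq2 (2310 genes), and the median was -3.45 under adipocyte scaling, beside -2.99 over all genes. In F-H-L against F-H, 1 member was called without the filter (1759 genes in all) and 1 with DESeq2 (923 genes), and the median was -1.10 under adipocyte scaling, beside -0.87 over all genes. Leaving out each library in turn gave 0 to 6 members called and medians of -0.45 to 0.60 in F-H against F-L. It gave 0 to 7 members called and medians of -0.61 to 0.43 in F-H-L against F-L, and 0 to 0 called and -0.19 to 0.06 in F-H-L against F-H; member shares of single libraries were 3.30% to 3.65% (F-H), 3.08% to 3.40% (F-H-L) and 2.84% to 6.16% (F-L). The cause of these shifts was not tested. Over all genes, the 193 edgeR calls of F-H against F-L became 0 with median-ratio factors, with the 2 groups alone and without Rn18s-rs5 (this alternative added after seeing the data), 411 with limma on log2(RPKM + 1) and 1040 on log2(RPKM + 0.1).

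The deviations of equally numbered libraries from their group means correlated at 0.02 for F-H and F-L. The values were -0.14 for F-H-L and F-L, and -0.02 for F-H-L and F-H. With so few libraries they cannot show whether equal numbers were paired. With the replicate block the member medians were -0.002, -0.10 and -0.06 in these 3 pairs, with 0 members called in each. With the numbers crossed in F-L, an alternative added after seeing the data, 0 members were called in each comparison and 184 genes in F-H against F-L. With 2 libraries per group, precision is set by the spread between libraries, a median biological coefficient of variation of 0.380 in core genes and 0.560 over all genes, and not by counting error.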
